A study of Mus musculus with 16 samples.

Results

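The 32 genes described here encode enzymes that digest material inside the lysosome and proteins of the lysosomal membrane. They were taken by symbol from a fixed list, out of 20848 genes with a probe set of a single gene symbol on the array, and the rule itself uses no measured value, though the list was drawn up with earlier results of these data known. All 32 had such probe sets, from 3 for Cd63 to 27 for Npc1, and all 32 passed the filter on low values. Every one of them lay above the median of its array on all 16 arrays, with 4.02 as the lowest member value on the log2 scale against array medians of 3.03 to 3.11.

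RNA came from primary mouse peritoneal macrophages of the resident population, from C57BL/6 animals that were wild type (WT, +/+) or lacked Ogr1 (KO, -/-), a receptor at the cell surface that is activated by protons. All cells were cultured in RPMI medium with fetal calf serum and spent 24 h at a control or an acidic pH, and 4 arrays were made for each of the 4 groups. The sample names give pH 7.7 and pH 6.7, which are used here, while the treatment text gives 7.6 and 6.8. The age and sex of the mice, the extent of the deletion and whether arrays came from separate animals are not given in the sources used here, and p-values here reflect only how far arrays of a group spread, which may be technical. The targeted gene was not analysed here, so the genotype labels were not checked against its transcript.

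Lysosomes are acidic compartments in which hydrolases cut proteins, sugars and lipids, and macrophages are rich in them because they digest what they engulf. Most of the soluble enzymes are made in the endoplasmic reticulum and carried from the Golgi to the lysosome by sorting receptors. The transcription factor TFEB and its relatives drive many lysosomal genes through a short promoter element, the CLEAR motif, and their entry into the nucleus is held back by mTORC1 on the lysosomal surface.

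Levels are log2 of the deposited intensity, averaged over the probe sets of a gene. Because probes differ in how well they bind, a level is set only against the same gene on other arrays or against the array median. A change is the mean at pH 6.7 minus the mean at pH 7.7, given with its standard error from limma, fitted over 15770 genes and 16 arrays. Adjusted p-values are those of limma after Benjamini-Hochberg adjustment over all 15770 genes, with a threshold of 0.05.

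Few of these genes passed the threshold for a change with acidification. In WT cells 4 of the 32 passed the threshold, where 4.71% of all genes tested did. Scarb2, Neu1 and Naglu rose and Gusb fell. In KO cells 3 of the 32 passed, beside 7.53% of all genes: Scarb2 and Ctsh rose and Gusb fell. Averaged over both genotypes, 5 of the 32 passed, beside 11.6% of all genes, with Scarb2, Ctsh and Naglu higher and Gusb and Man2b1 lower at pH 6.7. The shares of the 32 past the threshold were 12.5% in WT, 9.38% in KO and 15.6% in the mean. Those in KO and in the mean lay near their backgrounds, and the WT count fell when 1 array was left out. In limma 8 of the 32 in WT, 8 in KO and 13 in the mean were at an unadjusted p under 0.05. Of the 15770 genes tested, 2717, 3799 and 3978 were at that level. A member that did not pass is not shown to be unchanged. With each gene represented by its brightest probe set in place of the mean of its probe sets, 1 member passed in WT, Scarb2, 0 in KO and 1 in the mean.

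The median change of the members was small. In WT cells 21 of the 32 had a positive change and 11 a negative one, with a median of 0.09 against 0.01 for all genes. In KO cells 15 were positive and 17 negative, with a median of -0.02 against -0.01 for all genes. One array weighed on the WT figure. On replicate 2 of WT at pH 7.7, 24 of the 32 members were at their lowest of the 4 arrays, by a median of -0.24 from the other 3, while all genes lay at -0.09. Without that array 17 members were positive and 15 negative in WT, the median was 0.02, and Scarb2 and Gusb were the only 2 past the threshold, beside 3.71% of all genes.

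**Figure D1:**
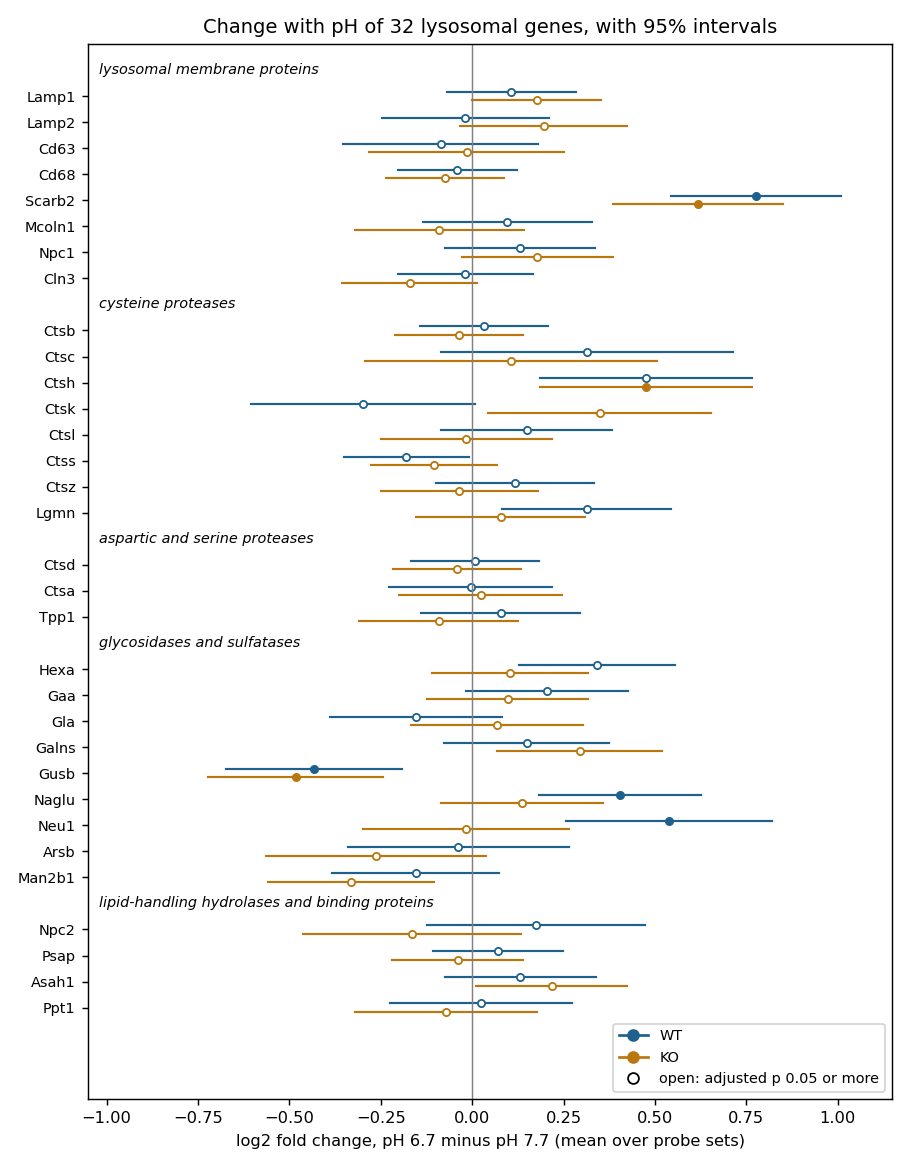
Change of each of the 32 genes from pH 7.7 to pH 6.7 on the log2 scale, in WT (blue) and KO (brown), with 95% intervals from limma; filled points passed an adjusted p of 0.05. Scarb2 lay to the right in both genotypes and Gusb to the left, while most intervals crossed 0.

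The membrane proteins held the member with the largest change. Scarb2 encodes LIMP-2, an abundant glycoprotein of the lysosomal membrane that also acts as a sorting receptor. At pH 7.7 its level was 7.10, 6.97, 7.02 and 6.91 on the 4 WT arrays and 6.97, 7.09, 6.95 and 7.21 on the 4 KO arrays. At pH 6.7 it was 8.13, 7.63, 7.73 and 7.61 in WT and 7.77, 7.68, 7.61 and 7.64 in KO. Every array at pH 6.7 was above every array at pH 7.7, in both genotypes, and replicate 1 of WT at pH 6.7 was the highest. The share of all genes whose arrays separate by pH was not computed, here or for the genes below. The rise of Scarb2 was 0.78 ± 0.11 in WT, 1.71-fold, with an adjusted p of 0.000469. In KO it was 0.62 ± 0.11, 1.53-fold, with an adjusted p of 0.00324. The KO change minus the WT change was -0.16, with a 95% interval of -0.49 to 0.17 and an adjusted p of 0.713, and without replicate 1 of WT at pH 6.7 it was -0.04.

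Scarb2 is read by 15 probe sets, each covering a stretch of the transcript, and they did not give a single picture. All 15 were higher at pH 6.7 in WT, by 0.07 to 1.17 with a median of 0.87, and all 15 were higher in KO, by 0.13 to 1.75 with a median of 0.47. The WT change was the larger one in 11 of the 15 and the KO change in 4. Fitted probe set by probe set over 140981 probe sets, 3 of the 15 passed as higher in WT, where 0.199% of all probe sets did, and 0 in KO, where 0.512% did. With limma, 12 of the 15 in WT and 9 of the 15 in KO were at an unadjusted p under 0.05. The share of all probe sets at that level was not computed. In the mean over both genotypes 9 of the 15 passed, beside 1.08% of all probe sets. With any 1 array left out, 1 or 2 passed in WT, and in the mean 4 to 10 did; of the 16 refits of the mean, 10 gave 4 or 5: those without replicate 2 or 3 of KO at pH 7.7, any KO array at pH 6.7, replicate 3 of WT at pH 7.7 or replicate 1, 2 or 3 of WT at pH 6.7. Leaving out any 1 of the 15 kept the gene's change between 0.75 and 0.83 in WT and between 0.54 and 0.65 in KO.

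The brightest and the dimmest of these probe sets ranked the genotypes in opposite orders. Numbered in the order of their identifiers, number 14 was the brightest and read 8.401, 8.23, 8.11 and 8.08 in WT at pH 7.7 and 9.62, 9.10, 9.34 and 9.43 at pH 6.7. In KO it read 8.95, 8.90, 8.65 and 8.79 at pH 7.7 and 8.96, 9.03, 9.11 and 9.05 at pH 6.7. The KO arrays were thus already above all WT arrays at pH 7.7, and number 14 rose by 1.17 ± 0.15 in WT (adjusted p = 0.00906 over probe sets) and changed by 0.22 ± 0.15 in KO. The KO change minus the WT change, -0.95 ± 0.22, had an adjusted p of 0.157 over probe sets. When each gene was represented by its brightest probe set in place of the mean, the same difference had an adjusted p of 0.0361 over 15770 genes, and the KO change of Scarb2 no longer passed (adjusted p = 0.373), nor did it with the median over probe sets (0.248). Number 15, the dimmest, changed by 0.90 ± 0.46 in WT and 1.75 ± 0.46 in KO, the reverse order, and neither passed. Which exons these probe sets cover was not analysed here.

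**Figure D2:**
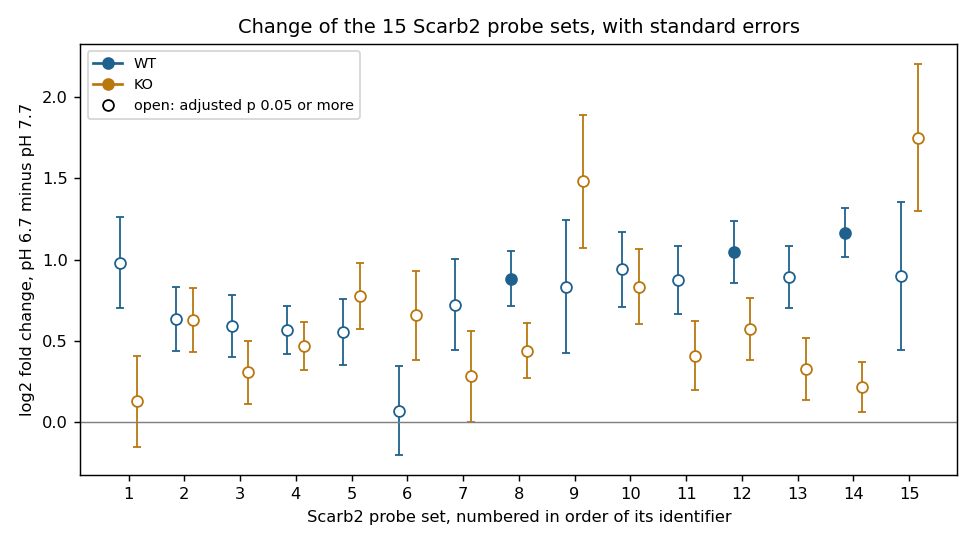
Change from pH 7.7 to pH 6.7, on the log2 scale with standard errors, of each of the 15 Scarb2 probe sets in WT (blue) and KO (brown); filled points passed an adjusted p of 0.05 over all probe sets. All 30 points lay above 0, from 0.07 to 1.75, and number 14 showed 1.17 in WT and 0.22 in KO.

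None of the other 7 membrane proteins passed in any comparison. Lamp1 and Lamp2, the abundant glycoproteins that line the inner face of the membrane, changed by 0.11 ± 0.08 and -0.02 ± 0.11 in WT and by 0.18 ± 0.08 and 0.20 ± 0.11 in KO. The tetraspanin Cd63 changed by -0.09 ± 0.13 and -0.02 ± 0.13. Cd68, a heavily glycosylated protein used as a macrophage marker, changed by -0.04 ± 0.08 in WT and -0.08 ± 0.08 in KO, with 95% intervals of -0.20 to 0.12 and -0.24 to 0.09. The cholesterol exporter Npc1, with the most probe sets of the members, changed by 0.13 ± 0.10 and 0.18 ± 0.10. Cln3, a membrane protein lost in a childhood neurodegenerative storage disease, changed by -0.02 ± 0.09 and -0.17 ± 0.09. Mcoln1, the calcium channel TRPML1 of the lysosomal membrane, had means of 6.37 ± 0.10 and 6.46 ± 0.19 in WT and 6.61 ± 0.18 and 6.52 ± 0.06 in KO (SD, n = 4).

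Among the 8 cysteine proteases 0 passed in WT, and 1, Ctsh, passed as higher in KO and in the mean over genotypes. That is 12.5% of the group in each, beside 7.53% and 11.6% of all genes. Ctsh encodes cathepsin H, an aminopeptidase. On the WT arrays it read 7.68, 7.21, 7.71 and 7.82 at pH 7.7 and 8.41, 7.95, 8.13 and 7.83 at pH 6.7. On the KO arrays it read 7.69, 7.64, 7.46 and 7.70 at pH 7.7 and 8.24, 7.94, 8.07 and 8.14 at pH 6.7. The arrays of the 2 pH values did not overlap in either genotype, though in WT the gap between the nearest 2 arrays was small and replicate 2 at pH 7.7 stood lowest. The change was 0.48 ± 0.14 in WT and 0.48 ± 0.14 in KO, and all 12 probe sets were higher at pH 6.7 in each. The adjusted p was 0.0558 in WT, 0.043 in KO and 0.00373 in the mean over genotypes. Leaving out any KO array, or replicate 3 of WT at pH 6.7, took the KO value past 0.05, up to 0.111, and without replicate 2 of WT at pH 7.7 the WT change was 0.34. With the brightest probe set in place of the mean over probe sets, Ctsh changed by 0.52 in WT and 0.071 in KO (adjusted p = 0.824). Over both genotypes it then changed by 0.295 (adjusted p = 0.125), and the call ended.

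The other cysteine proteases did not pass. Ctsb, Ctsl, Ctss and Ctsz, endopeptidases and a carboxypeptidase that macrophages make in quantity, changed by 0.03, 0.15, -0.18 and 0.12 in WT and by -0.04, -0.02, -0.10 and -0.03 in KO. Lgmn, the asparaginyl endopeptidase that trims other cathepsins, changed by 0.31 ± 0.11 in WT (adjusted p = 0.125) and 0.08 ± 0.11 in KO. Ctsc, the dipeptidase that activates granule proteases, changed by 0.31 ± 0.19 and 0.11 ± 0.19 and varied widely, with an SD of 0.40 among WT arrays at pH 7.7. Without replicate 2 of WT at pH 7.7 the WT changes of Lgmn, Ctsc, Ctsl and Ctsz were 0.19, 0.12, 0.04 and 0.02.

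Ctsk had opposite signs in the 2 genotypes and is described for that reason, after its values were seen. It encodes cathepsin K, a collagen-cutting protease best known from osteoclasts. In WT it read 4.503, 4.73, 4.84 and 4.497 at pH 7.7 and 4.10, 4.57, 4.21 and 4.505 at pH 6.7. In KO it read 4.08, 4.41, 4.54 and 4.69 at pH 7.7 and 4.86, 4.74, 4.52 and 5.0 at pH 6.7. The groups overlapped in both genotypes, with changes of -0.30 ± 0.15 and 0.35 ± 0.15. Their difference was 0.65 ± 0.21, the largest of the 32, with an adjusted p of 0.215.

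The aspartic and serine proteases Ctsd, Ctsa and Tpp1 stayed in a narrow range, and 0 of 3 passed in any of the 6 comparisons. Cathepsin D, the main aspartic protease, read 10.50, 10.30, 10.34 and 10.34 in WT at pH 7.7 and 10.38, 10.39, 10.37 and 10.35 at pH 6.7. In KO it read 10.36, 10.30, 10.35 and 10.32 at pH 7.7 and 10.33, 10.39, 10.31 and 10.13 at pH 6.7. The arrays of the 2 pH values overlapped in both genotypes. Its 95% interval was -0.17 to 0.18 in WT and -0.22 to 0.13 in KO. Ctsa, the carboxypeptidase that also shields the sialidase Neu1, changed by -0.00 and 0.02, and the tripeptidyl peptidase Tpp1 by 0.08 and -0.09.

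The glycosidases and sulfatases are 9 genes that take sugars and sulfates off glycoproteins, glycolipids and glycosaminoglycans. In WT 2 passed as higher and 1 as lower, in KO 0 and 1, and in the mean over genotypes 1 and 2. These are 33.3%, 11.1% and 33.3% of the group, beside 4.71%, 7.53% and 11.6% of all genes. Gusb encodes beta-glucuronidase. It read 6.70, 6.56, 6.76 and 6.86 in WT at pH 7.7 and 6.02, 6.16, 6.44 and 6.53 at pH 6.7. In KO it read 6.71, 6.77, 6.68 and 6.82 at pH 7.7 and 6.34, 6.07, 6.28 and 6.36 at pH 6.7. All arrays at pH 6.7 were below all arrays at pH 7.7 within each genotype. The fall was -0.43 ± 0.11 in WT (adjusted p = 0.0358) and -0.48 ± 0.11 in KO (adjusted p = 0.0175), and 16 of its 17 probe sets were lower in each. The WT call ended without replicate 1, 3 or 4 at pH 7.7 or replicate 1 or 2 at pH 6.7, with an adjusted p of up to 0.114, and the KO call without replicate 2 at pH 6.7 (0.0571). The mean over genotypes, -0.46, passed without any 1 array.

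Naglu encodes alpha-N-acetylglucosaminidase, which degrades heparan sulfate. Its WT arrays read 6.54, 6.39, 6.79 and 6.66 at pH 7.7 and 7.06, 6.97, 6.97 and 6.99 at pH 6.7. Its KO arrays read 6.84, 6.93, 6.85 and 6.54 at pH 7.7 and 7.07, 6.91, 6.84 and 6.89 at pH 6.7. The WT groups were apart and the KO groups overlapped. The change was 0.40 ± 0.11 in WT (adjusted p = 0.0333) and 0.14 ± 0.11 in KO (adjusted p = 0.46), and the difference of the changes was -0.27 (adjusted p = 0.479). The WT call ended without any 1 of the WT arrays other than replicate 3 at pH 7.7, with an adjusted p of up to 0.0894, and the call in the mean over genotypes, 0.27, ended without replicate 1 of KO at pH 6.7 (0.0546).

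Neu1 encodes a sialidase. In WT it read 4.47, 4.02, 4.52 and 4.48 at pH 7.7 and 4.96, 4.87, 4.75 and 5.06 at pH 6.7. In KO it read 4.26, 4.82, 4.82 and 4.54 at pH 7.7 and 4.65, 4.48, 4.55 and 4.69 at pH 6.7. The WT groups were apart, with replicate 2 at pH 7.7 far below the rest, and the KO arrays at pH 6.7 lay within the range of those at pH 7.7. The change was 0.54 ± 0.13 in WT (adjusted p = 0.0265) and -0.02 ± 0.13 in KO, and all 8 probe sets were higher in WT and 5 of 8 in KO. The difference of the changes, -0.56 ± 0.19, had an adjusted p of 0.251. The WT change was 0.42 without replicate 2 at pH 7.7, with an adjusted p of 0.0768, and it also missed the threshold without replicate 1, 2 or 4 at pH 6.7.

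Man2b1 encodes the lysosomal alpha-mannosidase. Its WT arrays read 8.71, 8.34, 8.71 and 8.79 at pH 7.7 and 8.58, 8.47, 8.51 and 8.38 at pH 6.7. Its KO arrays read 8.65, 8.61, 8.80 and 8.56 at pH 7.7 and 8.51, 8.26, 8.35 and 8.18 at pH 6.7. The KO groups were apart, while in WT replicate 2 at pH 7.7 was below all arrays at pH 6.7 and the other 3 were above them. The change was -0.15 ± 0.11 in WT and -0.33 ± 0.11 in KO, neither past the threshold, and -0.24 ± 0.08 over both (adjusted p = 0.046). Of the 16 refits with 1 array removed, the call held in 4, those without replicate 2 of WT at pH 7.7, replicate 1 of WT at pH 6.7, replicate 4 of KO at pH 7.7 or replicate 1 of KO at pH 6.7, and the adjusted p of the others was at most 0.0983.

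**Figure D3:**
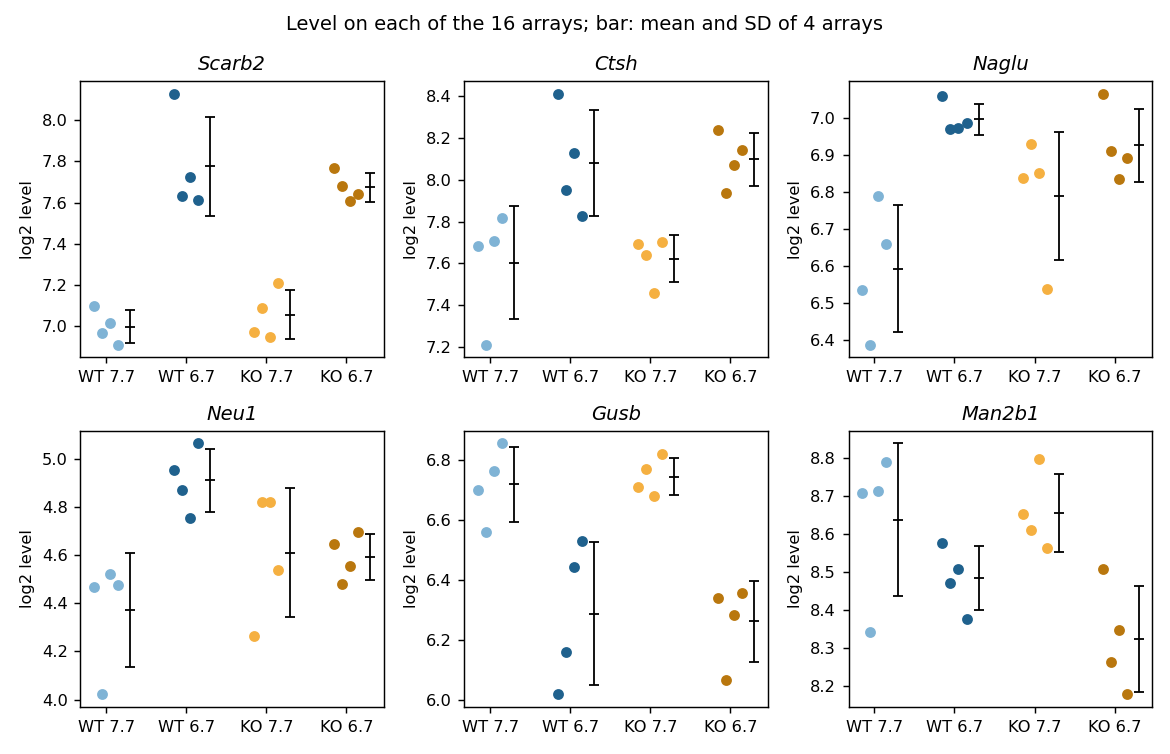
Log2 level of the 6 members that passed in at least 1 comparison, on each of the 16 arrays, with the mean and SD of the 4 arrays of a group beside the points; the axes do not start at 0 and differ between genes. Scarb2, Ctsh and Gusb separated by pH in both genotypes, Naglu and Neu1 in WT, and Man2b1 in KO. Members that did not pass, such as Ctss, Hexa and Lgmn in WT and Arsb in KO, also separated. The share of all genes that separate by pH was not computed.

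The other 5 sugar and sulfate enzymes did not pass. Hexa, the alpha chain of beta-hexosaminidase, came nearest, with 0.34 ± 0.10 in WT (adjusted p = 0.0635), 0.10 ± 0.10 in KO and 0.22 ± 0.07 over both (adjusted p = 0.052). The sulfatase Galns changed by 0.15 ± 0.11 and 0.29 ± 0.11, and the sulfatase Arsb by -0.04 ± 0.14 and -0.26 ± 0.14. The glycogen-degrading acid alpha-glucosidase Gaa changed by 0.20 ± 0.11 and 0.10 ± 0.11, and the alpha-galactosidase Gla by -0.15 ± 0.11 and 0.07 ± 0.11. Among the 9 genes of the group the WT change was positive in 5 and negative in 4, and the KO change likewise.

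The 4 genes that handle lipids did not pass in any comparison. Asah1, acid ceramidase, read 8.21, 7.85, 8.09 and 8.01 in WT at pH 7.7 and 8.27, 8.14, 8.26 and 8.02 at pH 6.7, and 7.93, 8.06, 8.02 and 8.19 at pH 7.7 and 8.34, 8.30, 8.25 and 8.17 at pH 6.7 in KO. Its groups overlapped in WT and in KO, with changes of 0.13 ± 0.10 and 0.22 ± 0.10. Psap, the precursor of the saposins that present lipids to hydrolases, changed by 0.07 and -0.04, and its 95% intervals, -0.11 to 0.25 and -0.22 to 0.14, were among the narrowest. Npc2, which hands cholesterol to Npc1, changed by 0.18 and -0.17, and the thioesterase Ppt1 by 0.02 and -0.07.

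For some of the members the data bound the change closely. In the mean over both genotypes the 95% interval of 29 of the 32 lay within 0.5 log2 units of 0, and that of 15 within 0.25. Those 15 were Cd63, Cd68, Cln3, Ctsa, Ctsb, Ctsd, Ctsk, Ctsl, Ctsz, Gla, Mcoln1, Npc2, Ppt1, Psap and Tpp1. Several of them, Ctsk, Npc2, Gla, Mcoln1 and Tpp1 included, had WT and KO changes of opposite sign, which offset each other in the mean. None of these named genes lay within 0.25 in WT or in KO alone. In WT alone 7 of the 32 lay within 0.25 and in KO alone 6.

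Loss of Ogr1 by itself moved none of these genes past the threshold. At pH 7.7, 0 of the 32 differed between KO and WT, beside 0% of all genes. In limma 2 of the 32 were at an unadjusted p under 0.05, beside 1274 of the 15770 genes tested. Npc2 was 0.35 ± 0.14 in KO minus WT (adjusted p = 0.555) and Mcoln1 0.24 ± 0.11 (0.593). At pH 6.7, 0 of the 32 passed, beside 0.0254% of all genes. Ctsk at 0.43 ± 0.15 (adjusted p = 0.274) and Neu1 at -0.32 ± 0.13 (0.381) were the 2 at an unadjusted p under 0.05 there, beside 1799 of the 15770 genes. Both counts stayed at 0 under the 11 other settings and in the 16 fits that left out 1 array.

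In the test of whether the response to pH differed between genotypes, 0 of the 32 passed, beside 0.0698% of all genes. In limma Ctsk and Neu1 were the 2 members at an unadjusted p under 0.05, beside 1952 of the 15770 genes tested. With the brightest probe set per gene 1 passed, Scarb2, as given above. The KO change was the smaller or more negative one in 22 of the 32, with a median difference of -0.10 against -0.02 for all genes. Without replicate 2 of WT at pH 7.7 it was so in 19 of the 32, with a median of -0.03. The 95% interval of the difference lay within 0.5 log2 units of 0 for 21 of the 32, Scarb2, Gusb and Ctsh among them. Larger differences were thus not bounded for the other 11, Naglu, Neu1 and Ctsk included. These intervals hold for the mean over the probe sets of a gene. For Scarb2 the difference ranged from -0.95 to 0.85 over its 15 probe sets.

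**Figure D4:**
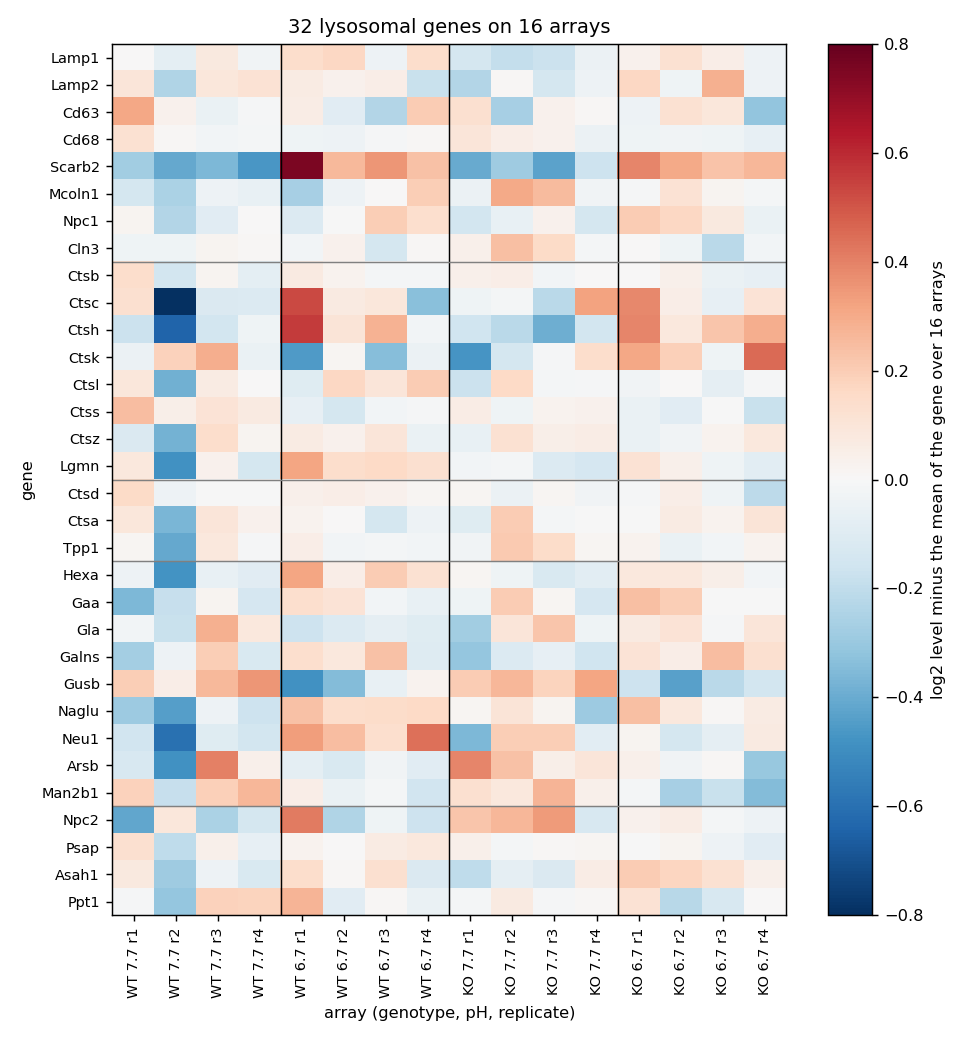
Log2 level of the 32 genes on each of the 16 arrays after subtracting the mean of the gene over all arrays, grouped by role (grey lines) and by group of arrays (black lines). Scarb2 is blue at pH 7.7 and red at pH 6.7, and replicate 2 of WT at pH 7.7 is blue for most genes.

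Markers of macrophages and of other cells were read beside the members. Of 12 macrophage markers 3 passed as higher in WT and 1 as lower in KO, and of 4 measured B cell markers 1 passed as higher in WT and 0 in KO. Of 5 mast cell markers 0 passed in limma in either, with 4 in WT and 1 in KO at an unadjusted p under 0.05. All 5 were positive in WT and all 5 negative in KO. In the test of whether the response differed between genotypes 0 of the 5 passed. All 5 were at an unadjusted p under 0.05 there in limma, beside 1952 of the 15770 genes tested. Among 3 neutrophil markers tested 1 passed as lower in WT and 0 in KO. Among 2 T and NK cell markers tested 0 passed in WT and 1 as lower in KO. Among 7 mesothelial and fibroblast markers tested 0 passed in WT and 2 as lower in KO, where all 7 were negative. The 1 eosinophil and 3 dendritic cell markers tested did not pass in either. Of all genes 4.71% passed in WT and 7.53% in KO. The 12 macrophage markers, all with means above the array median, averaged 6.38 to 6.95 on WT arrays at pH 7.7 and 6.91 to 7.33 at pH 6.7, and 6.70 to 7.06 and 6.91 to 7.12 on KO arrays. Their mean change was 0.39 in WT, 0.27 without replicate 2 at pH 7.7, and 0.12 in KO. In WT 8 of the 12 were positive and 4 negative, and the widest shifts were in Marco, from a mean of 6.25 to 7.84, and Fcgr1, from 3.11 to 4.42. The 5 mast cell markers averaged 2.04 to 3.03 and 2.42 to 4.91 in WT, and 3.15 to 3.79 and 2.33 to 3.05 in KO, with 2 of 5 above the array median. The 4 measured B cell markers averaged 2.68 to 3.16 and 2.73 to 4.23 in WT, and 2.84 to 3.96 and 2.81 to 3.06 in KO. Of the T and NK cell and eosinophil markers 0 lay above the array median, of the dendritic cell and the mesothelial and fibroblast markers 1 each, and of the neutrophil markers 2. In such bulk RNA fewer cells of a type and less RNA per cell cannot be told apart, and the part of these shifts in the changes of the 32 genes was not tested.

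Promoters were read for the CLEAR motif and its core. Of the 32 members 27 had a promoter in the RefSeq table used (GRCm38.p6), each a window of 300 bases with 250 before and 50 after the transcript start, and 4 of them had several windows. The hexamer CACGTG, which reads the same on both strands, was in a window of 10 of the 27, or 37%, and of 8.09% of 27025 genes. The longer TCACGTGA, which contains it, was in 5 of 27, or 18.5%, and of 1.12% of genes. The related hexamer CACATG, searched on both strands (CATGTG on the other) and not overlapping with CACGTG, was in 9 of 27, or 33.3%, and of 15.9% of genes. Shown here are the member with the largest rise, the one with the largest fall, the one with CACGTG that passed, and a window with CACGTG in 2 places of a gene that did not pass; capitals mark CACGTG or CACATG, and each is written 5′ to 3′ on the strand of its gene.
Scarb2 (chr5:92505608-92505907, minus strand): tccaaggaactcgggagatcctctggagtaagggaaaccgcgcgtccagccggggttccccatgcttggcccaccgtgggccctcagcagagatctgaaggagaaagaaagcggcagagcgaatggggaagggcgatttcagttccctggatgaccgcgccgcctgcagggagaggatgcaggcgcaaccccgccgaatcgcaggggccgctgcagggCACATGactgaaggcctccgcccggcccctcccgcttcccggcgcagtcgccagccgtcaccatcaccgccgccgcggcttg
Gusb (chr5:130003000-130003299, minus strand): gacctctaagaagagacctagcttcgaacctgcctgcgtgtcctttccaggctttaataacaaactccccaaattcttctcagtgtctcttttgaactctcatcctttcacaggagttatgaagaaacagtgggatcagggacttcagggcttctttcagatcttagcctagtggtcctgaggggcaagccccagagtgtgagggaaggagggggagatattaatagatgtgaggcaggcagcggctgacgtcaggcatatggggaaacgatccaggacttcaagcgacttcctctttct
Naglu (chr11:101069844-101070143, plus strand): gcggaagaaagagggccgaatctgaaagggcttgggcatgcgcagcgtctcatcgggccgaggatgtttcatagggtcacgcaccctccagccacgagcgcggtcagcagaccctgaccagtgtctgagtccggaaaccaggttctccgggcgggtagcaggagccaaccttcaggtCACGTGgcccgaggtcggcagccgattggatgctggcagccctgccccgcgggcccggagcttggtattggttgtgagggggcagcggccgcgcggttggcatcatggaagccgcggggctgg
Cln3 (chr7:126583187-126583486, minus strand): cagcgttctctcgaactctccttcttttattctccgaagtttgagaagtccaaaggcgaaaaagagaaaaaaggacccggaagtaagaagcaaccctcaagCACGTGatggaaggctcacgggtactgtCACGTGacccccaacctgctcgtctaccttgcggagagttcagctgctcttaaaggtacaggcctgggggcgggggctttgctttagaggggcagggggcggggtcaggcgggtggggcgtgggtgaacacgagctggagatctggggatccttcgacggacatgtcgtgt

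The Scarb2 window held CACATG 32 bases before the start and no CACGTG, and the Gusb window held neither. In Naglu CACGTG began 73 bases before the start. In Cln3 it began 149 and 121 bases before the start, the latter within TCACGTGA. Of the 10 members that held CACGTG, Naglu passed in WT and 0 passed in KO. Of the 17 without it Scarb2, Neu1 and Gusb passed in WT and Scarb2 and Gusb in KO. The 10 had a median change of 0.10 in WT and 0.05 in KO, and the 17 of 0.02 and -0.04, and these differences were not tested. The 5 with TCACGTGA, namely Mcoln1, Cln3, Ctsd, Ctsa and Gla, changed by -0.15 to 0.10 in WT and by -0.17 to 0.07 in KO. A match is a run of letters and not a site shown to be bound.

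Lysosomal genes outside the list were read in the same fit. Of 21 genes that carry enzymes to the lysosome, 1 passed, Sort1, which rose in WT, in KO and in the mean. That is 4.76% of the list, near or below the 4.71%, 7.53% and 11.6% of all genes. Sort1 encodes sortilin, a Golgi receptor that takes cathepsins and prosaposin to the lysosome. It read 6.24, 6.29, 6.10 and 6.44 in WT at pH 7.7 and 7.18, 7.11, 7.28 and 7.001 at pH 6.7, and 5.86, 6.00, 5.91 and 6.07 at pH 7.7 and 7.03, 6.99, 7.12 and 7.12 at pH 6.7 in KO. Its arrays separated by pH in both genotypes. The rise was 0.88 ± 0.09 in WT (adjusted p = 6.48e-05) and 1.11 ± 0.09 in KO (adjusted p = 6.75e-06), and it passed in every fit that left out 1 array.

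Of 31 other lysosomal hydrolases tested, 6 rose and 1 fell in the mean over genotypes, 5 rose and 1 fell in WT, and 3 rose and 0 fell in KO. These are 22.6%, 19.4% and 9.68% of the list, beside 11.6%, 4.71% and 7.53% of all genes. The sulfatase Arsg changed by 0.69 ± 0.16 in WT and 0.62 ± 0.16 in KO (adjusted p = 0.000936 over both). The iduronidase Idua changed by 0.53 ± 0.13 and 0.45 ± 0.13 (0.00172 over both). The calls of Arsg and Idua over both held without any 1 array. That of Arsg ended in WT without replicate 2 at pH 7.7 or replicate 1 at pH 6.7. In KO it ended without replicate 1 or 3 at pH 7.7 or replicate 1, 2 or 4 at pH 6.7. The call of Idua ended in WT without replicate 1, 3 or 4 at pH 6.7, and in KO without any KO array other than replicate 2 at pH 7.7. The lysosomal phospholipase Pla2g15 changed by 0.73 ± 0.12 in WT (adjusted p = 0.00169) and 0.16 ± 0.12 in KO (0.443), and the difference, -0.57, had an adjusted p of 0.192. Pla2g7, which was on the list although its product is a secreted enzyme that degrades platelet-activating factor, changed by 0.31 ± 0.09 and 0.40 ± 0.09 (0.00143 over both). Outside the rule for naming genes and chosen after their values were seen, Gm2a (0.51), the activator of Hexa, and the acid phosphatase Acp5 (1.23) were the remaining 2 that rose in WT, and Hyal2, a hyaluronidase, was the one that fell (-0.35 over both). In WT the call of Gm2a ended without replicate 2 or 4 at pH 7.7 or replicate 1, 2 or 3 at pH 6.7, that of Acp5 without replicate 2 or 4 at pH 7.7 or replicate 1 or 2 at pH 6.7, and that of Hyal2 without replicate 2, 3 or 4 at pH 7.7 or replicate 1 or 3 at pH 6.7. With the brightest probe set per gene the calls over both genotypes ended for Idua (adjusted p = 0.227), Pla2g15 (0.547), Pla2g7 (0.259) and Hyal2 (0.117).

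Of 26 other lysosomal membrane proteins, 1 rose and 5 fell in the mean over genotypes, with 1 higher and 0 lower in WT and 1 higher and 1 lower in KO. These are 23.1%, 3.85% and 7.69% of the list, beside 11.6%, 4.71% and 7.53% of all genes. Slc11a1, the metal exporter of phagosomes also called NRAMP1, read 8.05, 7.94, 7.89 and 7.95 in WT at pH 7.7 and 8.33, 8.35, 8.48 and 8.46 at pH 6.7. In KO it read 7.98, 8.16, 7.97 and 8.10 at pH 7.7 and 8.42, 8.39, 8.32 and 8.29 at pH 6.7, without overlap between the pH values in either genotype, and it rose by 0.37 ± 0.06 over both (adjusted p = 0.000438). With the brightest probe set it changed by 0.090 over both (adjusted p = 0.66) and by 0.078 in WT (0.87), and the call ended. Its KO call also ended without any 1 of the KO arrays other than replicate 2 at pH 7.7, with an adjusted p of up to 0.097. The cystine exporter Ctns fell by -0.42 (adjusted p = 0.00647), Mfsd12, needed for cysteine import, by -0.32 (0.0288) and the channel Mcoln2 by -0.29 (0.0315). The other 2 that fell, named after their values were seen, were the nucleoside transporter Slc29a3 (-0.28) and the chloride-proton exchanger Clcn7 (-0.22). Except for Ctns, the call of each of the 5 that fell ended without 1 or another array. Under the 10 other settings the call of Ctns held in 9, with an adjusted p of up to 0.0596 in limma. For Mfsd12, Mcoln2, Slc29a3 and Clcn7 the adjusted p reached 0.769, 0.522, 0.147 and 0.705.

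Of the 24 regulators of lysosomal genes tested, 0 passed in limma in any of these comparisons, with 3 in WT and 4 in KO at an unadjusted p under 0.05. Of the 15770 genes tested, 2717 in WT and 3799 in KO were at that level. Tfeb changed by -0.11 ± 0.10 and -0.00 ± 0.10 and its relative Tfe3 by -0.18 ± 0.10 and -0.06 ± 0.10, while Mitf changed by -0.13 ± 0.10 in WT and 0.24 ± 0.10 in KO. A transcript level says nothing of where these proteins are in the cell. Of 8 genes on a list of cathepsin inhibitors, 0 passed in limma in WT (1 at an unadjusted p under 0.05), and 1 fell in KO and in the mean, or 12.5% of the list. That gene, Spp1, encodes the secreted protein osteopontin and is no cathepsin inhibitor. It changed by -0.63 ± 0.25 in WT (adjusted p = 0.177) and -1.25 ± 0.25 in KO (adjusted p = 0.00657).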

How the data were processed

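Expression was measured on 16 Affymetrix arrays, 4 for each combination of genotype and pH, as the sample labels give them. The deposited table holds 1 linear intensity for each of 241576 probe sets and array, with a range of 0.88 to 5510. Per the submitters' processing notes, the authors used R 2.15.2 and RMA, which corrects the background, equalises the quantiles of the arrays and summarises the probes of each set. No annotation or filter is named in them, and no date or batch in the labels, and no batch was tested. No 2 arrays held identical values. Arrays have no read depth; their number and the absence of detection calls limit the precision.

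Log2 was taken of the deposited intensities. Probe sets were named from the platform annotation, and 213361 with 1 symbol were used (5107 with several and 23108 with none were left out, among them 1 of Cln3, 7 of Ctsa and 2 of Ctsb). Symbols were updated through the RefSeq gene table, and the mean over probe sets was taken for each of 20848 genes. The 15770 genes whose brightest probe set lay above the array median (50th percentile) on at least 4 arrays were fitted with group means over all arrays and moderated variances (limma 3.58.1 in R 4.3.3). Tests were 2-sided, with Benjamini-Hochberg adjustment within each of 6 comparisons and a threshold of 0.05. Scarb2 was also fitted among 140981 probe sets. Errors of levels are SDs over 4 arrays. The steps were tested on simulated data. The median correlation with the other arrays was 0.883 for replicate 2 of WT at pH 7.7 and 0.907 to 0.923 for the others.

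The members, the 5 lists of related genes and the markers were chosen with earlier results of these data known. Values on every array are given for Scarb2 and each member past the threshold, and up to 4 genes past the threshold with the smallest p are named from each list. Some listed genes are not reported here. Promoter sequences came from RefSeq (GRCm38.p6).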

Additional observations from a re-analysis of the deposited data

Results flagged for a closer look

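In 128 sets of 4 arrays (32 genes in 4 groups), 7 had 1 array far from the other 3 by Dixon's criterion (0.829 for 4 values), and chance marks about 1 set in 20. Replicate 2 of WT at pH 7.7 lay below the other 3 in 4 of the 7: Lamp2 was 8.39 there with the nearest array at 8.72, Ctsa 8.62 with the nearest at 9.02, Hexa 8.72 with the nearest at 9.10 and Neu1 4.02 with the nearest at 4.47. The other 3 were in WT at pH 6.7. Lamp1 was 8.84 on replicate 3 with the nearest at 9.01, Lamp2 was 8.46 on replicate 4 with the nearest at 8.66, and Tpp1 was 8.54 on replicate 1, above the nearest at 8.48. None of the 7 was in KO.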

How the results depend on the processing

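The 6 counts of members past the threshold were refitted under 11 other settings (10 for the interaction and the mean), the 3 counts of Scarb2 probe sets under 6 (5 for the mean), and all 9 without each of the 16 arrays. The number of members past the threshold in WT, 4 in the report, was 1 with the brightest probe set per gene, 2 with the median over probe sets, 7 with an intensity trend and robust variances, 2 with array weights, 1 when only the WT arrays were fitted, and 1 to 4 without 1 array. In KO it was 3, 0 with the brightest probe set, 1 with the median and 1 to 4 without 1 array. In the mean over genotypes it was 5, 1 with the brightest probe set and 4 to 6 without 1 array. The interaction count was 0, 1 with the brightest probe set (Scarb2) and 0 without 1 array. The count of Scarb2 probe sets higher in WT, 3, was 7 with the trend, 0 when only the WT arrays were fitted and 1 to 2 without 1 array. In KO it was 0, 5 with the trend, 1 with array weights and 0 to 1 without 1 array, and in the mean it was 9 and 4 to 10. Neu1 in KO changed sign, from -0.02 to 0.25 with the brightest probe set, 0.11 with the median, 0.027 over probe sets above the median of all, and -0.13 to 0.053 without 1 array; Idua in KO went from 0.45 to -0.031 with the brightest probe set. The causes were not tested. The brightest probe set also moved the counts over all genes, from 743 to 189 in WT, 1188 to 595 in KO, 1827 to 560 in the mean and 11 to 95 in the interaction, with 34.5% of the KO calls higher in place of 64.6%. The median gave 337 in WT, 442 in KO, 976 in the mean and 2 in the interaction, and the WT arrays alone gave 314. Another quantile normalization gave 54.8% of the WT calls as higher in place of 67.3%. Scarb2 passed in WT in all 27 refits and in KO in 25 of 27, and Sort1 in both genotypes in all 27. Scarb2 missed in KO with the brightest probe set and with the median over probe sets. The refits share most of their arrays, and leaving out an array of 1 genotype does not alter the change in the other.

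Same-numbered arrays of different groups had correlations of their deviations from -0.25 to 0.225 in 24 pairs, with 3 pairs over 0.1. The highest was that of replicate 1 of KO at pH 7.7 and at pH 6.7. With 4 arrays per group, these values cannot settle whether replicate numbers paired the arrays within a genotype. With the replicate number as a block, 4 members passed in WT, 3 in KO and 6 in the mean, and the Scarb2 probe sets past the threshold were 1 in WT and 4 in the mean. The brightness of a probe set above background was not measured.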
